A study of Arabidopsis thaliana with 28 samples.

Results

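The 33 xyloglucan endotransglucosylase/hydrolase genes of Arabidopsis, XTH1 to XTH33, were taken by their names and locus numbers from a table of 27432 protein-coding genes, and their open chromatin was followed in 16 ATAC-seq libraries, in which a transposase tags accessible DNA. XTH enzymes work in the plant cell wall, where they cut chains of xyloglucan, the sugar polymer that ties cellulose together, and either join the cut end to another chain or release it by hydrolysis. Walls that expand, ripen or thicken depend on such cutting and pasting, and single members are known from growing roots, root hairs, stems, veins and touched or shaded shoots. The family is split into classes I/II, most of whose studied members join chains, and class III, XTH27 to XTH33, which holds the hydrolases XTH31 and XTH32.

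The libraries came from sorted nuclei of roots or shoots that were kept for 45 min in medium with vehicle or with the cytokinin benzyladenine (BA) at 5 µM. The groups were roots of the arr1,10,12 mutant with BA (2 libraries) and with vehicle (2), roots of wild-type (WT) Col-0 with BA (4) and with vehicle (4), and WT shoots with BA (2) and with vehicle (2). The mutant carries mutations in ARR1, ARR10 and ARR12, type-B response regulators at the end of the cytokinin pathway. The series text calls the libraries biological replicates, the labels name neither mutant alleles nor plant age, and a further 12 RNA samples were not analysed here.

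The values used are the share of a gene window, meaning the gene body plus 1 kb at each end, that lay under the authors' peaks, called here the covered percent. Each library had between 30778 and 36358 peaks covering 19.7 to 28.7 Mb, with no read numbers, so depth is unknown. WT roots had more sequence under peaks than WT shoots: over all 24696 windows with a peak in at least 2 libraries, the root minus shoot difference had a mean of 5.25 points of covered percent and a median of 3.46. Tests were run on the raw values and again after each library was centred on its own mean. Both labelled tissues were checked with marker genes. Of 10 root genes, 5 were higher in roots (RHD6, EXPA7, CASP1, PLT2 and NRT2.1), none was lower, and RHD6 and PLT2 were at 0 in all shoot libraries. Over all windows, 37.1% were called higher in roots and 10.7% lower on the same raw values. Of 9 shoot genes tested, 7 were lower in roots and CRC was higher, while STM had no peak in any library. With the replicate number as a block 6 of the shoot genes were lower. After centring 5 root genes were higher, against 20.7% of all windows. Of the shoot genes 7 were then lower, against 31.6%, and none was higher. All cell types of an organ were pooled, so a peak in more cells and a stronger peak in the same cells cannot be told apart.

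Peaks were common at XTH genes. In 31 of the 33 windows at least 2 libraries had a peak, and 22 windows had one in all 16 libraries, against 73.9% of all protein-coding gene windows. XTH1 (AT4G13080) and XTH12 (AT5G57530) had no peak in any library, which was the case for 8.73% of all windows. The other 9 genes (XTH2, XTH3, XTH6, XTH10, XTH13, XTH15, XTH16, XTH21 and XTH29) had peaks in some libraries. Levels within the family ranged widely. In WT roots the mean covered percent ran from 0 (XTH1, XTH10 and XTH12) to 90.1% at XTH8, with a median of 31.0%, and in WT shoots from 0 to 97.9% at XTH27, with a median of 41.9%. The median of all windows was 22.7% in roots and 17.2% in shoots.

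**Figure D1:**
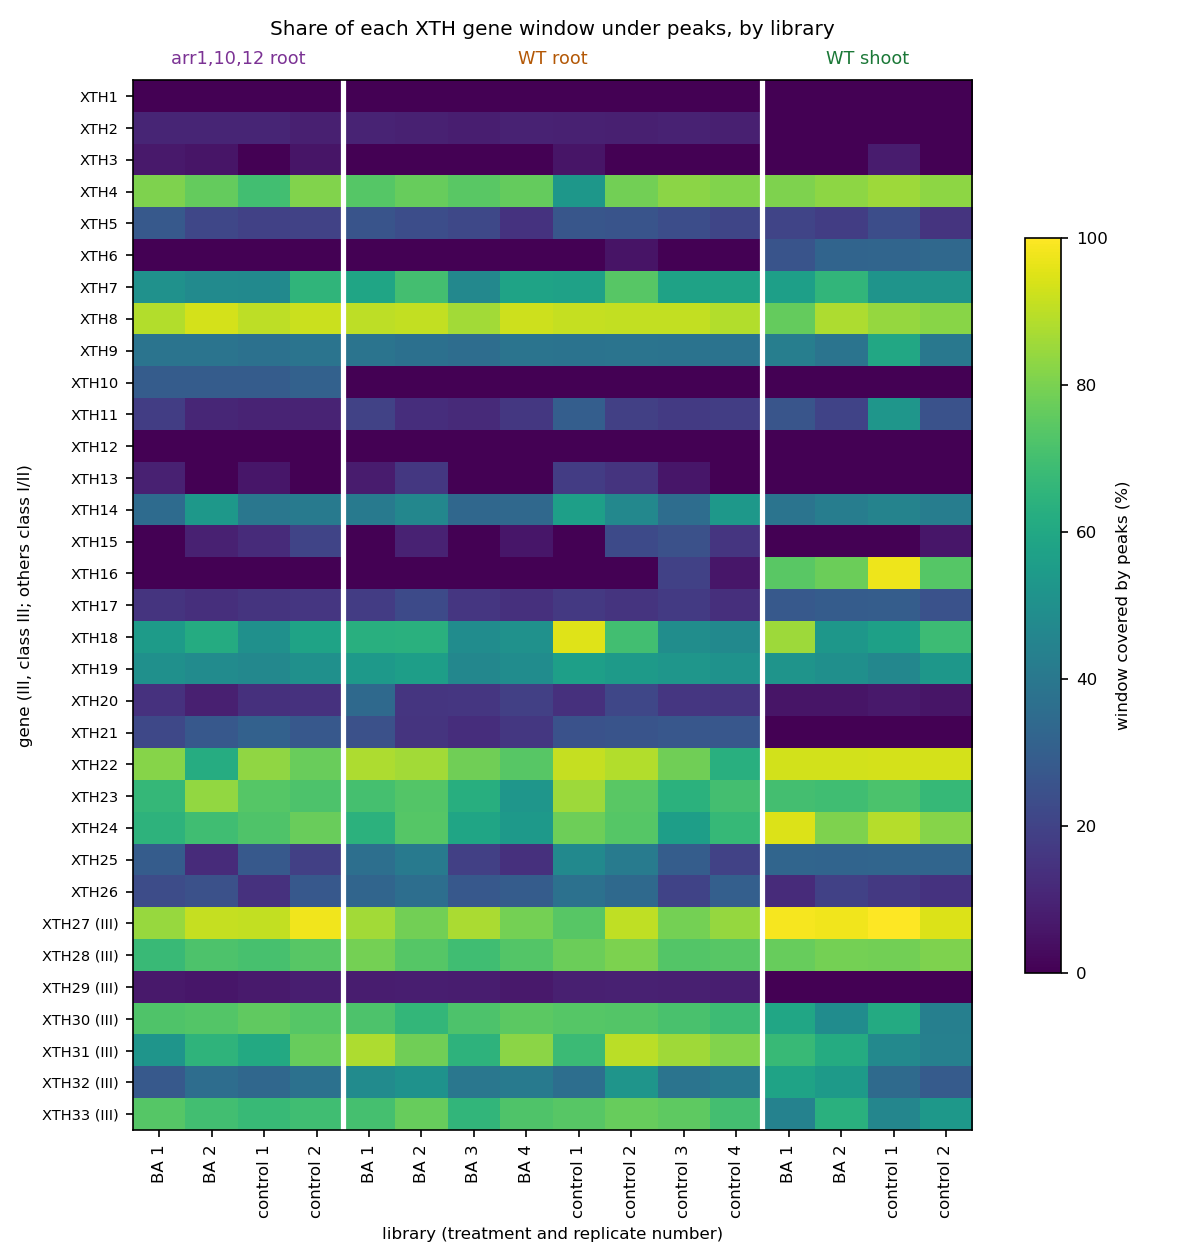
Colour gives the covered percent (0 to 100%) of the gene body plus 1 kb at each end, for XTH1 to XTH33 from top to bottom and for the 16 libraries from left to right, in the sets arr1,10,12 root, WT root and WT shoot. XTH10 is above 0 in the 4 mutant libraries alone, XTH16 and XTH6 are bright in shoots, and XTH2, XTH21 and XTH29 are at 0 in all shoot libraries.

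WT roots were compared with WT shoots to show which XTH genes had more accessible chromatin in which organ. Of the 31 windows tested, 9 were higher in roots and 7 were lower, at an adjusted p under 0.05 (limma across all windows, 8 root against 4 shoot libraries, Benjamini-Hochberg). Of all windows tested, 47.8% passed, 37.1% higher and 10.7% lower in roots, so the family's 16 of 31 called was near the background in total. After centring, 19 members passed, 7 higher and 12 lower, where 52.2% of all windows passed, 20.7% higher and 31.6% lower. Over all windows the share of calls that were higher in roots was 39.6%, against 77.6% before. The median difference of the 31 members was 0 points, against 3.46 over all windows. On the raw values, 4 of 7 of class III were higher in roots and 1 was lower. Of classes I/II, 5 of 24 tested were higher and 6 lower. After centring, XTH30, XTH31 and XTH33 of class III were higher and XTH27 and XTH28 lower. The other calls after centring were in classes I/II.

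XTH16 and XTH6 stood on the shoot side. XTH16 (AT3G23730), a gene known to respond to shade in shoots, was covered to 0, 0 and 19.5% in WT roots (lowest, median and highest), against 74.3% and 77.4% in BA shoots and 97.4% and 73.5% in control shoots. All shoot libraries lay above all root libraries, and in roots only control replicates 3 and 4 had a peak in the window. The difference was -77.5 points (SE 4.19), and of all 24696 windows 5, XTH16 among them, had a root minus shoot difference this low. Shoot peaks lay on both sides of the gene and reached into the body from each end. One region, chr3:8546404-8550786, was covered to 14.1% in WT roots and to 85.9% in WT shoots, with a peak in every library, which in WT roots lay outside the XTH16 window. The other, chr3:8550874-8552569, had a peak in 2 of 8 root and 4 of 4 shoot libraries, and in none of the mutant root libraries.

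XTH6 (AT5G65730) had a median of 0 and a highest value of 5.26% in WT roots, reached in control replicate 2, against 25.8% and 32.2% in BA shoots and 32.4% and 33.7% in control shoots. The groups did not overlap, and the difference was -30.4 points (SE 1.25). Its gene body was at 0 in all root libraries and at 21.5% ± 0.91 (SD, n = 4) in shoots. A region past the high-coordinate end, chr5:26301164-26301712, had a peak in no root library and in all 4 shoot libraries. It also touches the neighbour AT5G65740, whose own window was lower in roots by 7.65 points (adjusted p 0.00605, limma).

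Of the other members called lower in roots, XTH24, XTH27 and XTH17 kept that call after centring, with the replicate number as a block, and without any 1 library. XTH24 (AT4G30270), also known as MERI5 from the meristem, had 53.9%, 65.6% and 77.8% (lowest, median and highest) in roots and 80.6% to 94.9% in shoots, without overlap. The difference was -20.8 points (SE 4.59). XTH27 (AT2G01850), a class III gene known from the veins of leaves, was covered to 73.9%, 81.7% and 90.4% in roots and to 94.9% at least in shoots, where control replicate 1 was at 100%. Its peaks form part of a region of 9319 bp that runs over several other genes. XTH17 (AT1G65310), known from the growing root, was nevertheless lower in roots, with 16.5% ± 2.82 (SD, n = 8) against 27.9% ± 1.91 in shoots (SD, n = 4). That came from its flank: chr1:24258858-24259283, 351 bp past the high-coordinate end, had a peak in 0 of 8 root and 4 of 4 shoot libraries, while the gene body alone was at 21.2% in roots and 20.2% in shoots. XTH11 (-13.0 points) and XTH9 (-7.43 points), which is known from stems and the shoot apex, were called too, but not with the replicate block (adjusted p 0.0520 and 0.0976 by limma). XTH11 and XTH9 each had 1 high shoot library, control replicate 1, at 52.7% and 60.0%. Without that library the differences were -6.12 and -2.40 points, and neither passed.

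**Figure D2:**
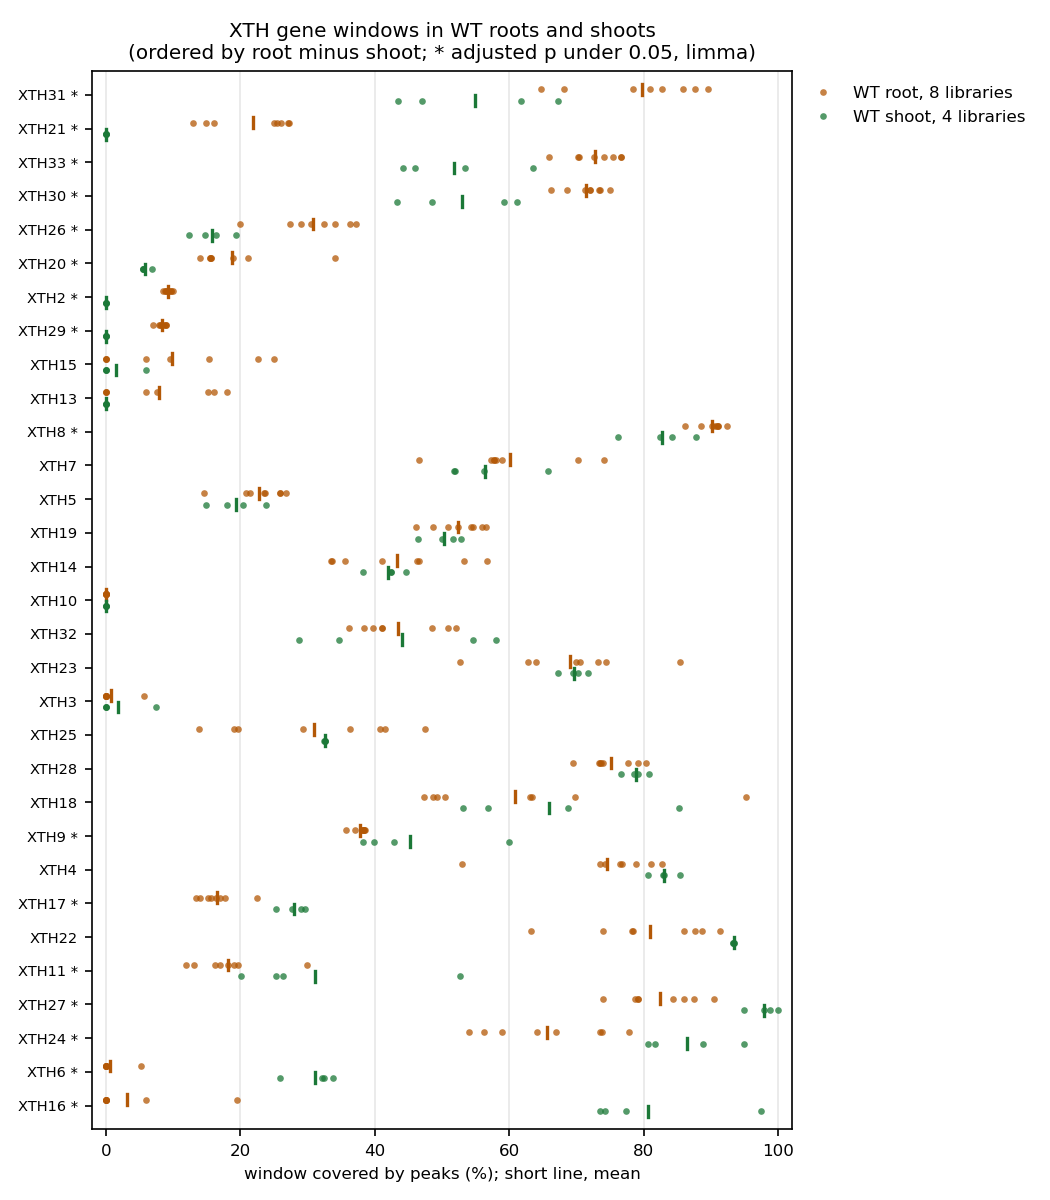
Points give the covered percent of 31 XTH windows (x axis, 0 to 100%) in each of 8 WT root libraries, drawn above, and 4 WT shoot libraries, drawn below, with a short line at each mean. Genes are ordered by root minus shoot, and a star marks an adjusted p under 0.05. XTH31, XTH21, XTH33 and XTH30 are at the top and XTH24, XTH6 and XTH16 at the bottom.

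On the root side, 3 windows had peaks in all WT root libraries and in no shoot library, against 2.69% of all windows. XTH21 (AT2G18800), known for a part in root growth, was covered to 25.0%, 14.9%, 12.9% and 16.1% in BA roots and to 25.4%, 26.1%, 27.0% and 27.2% in control roots, and was at 0 in all 4 shoot libraries. The difference was 21.8 points (SE 1.97). Its region, chr2:8143885-8145019, lies before the low-coordinate end of XTH21 and overlaps 139 bp of the body. It also touches PHYB, the gene of the red light receptor phytochrome B, whose window was higher in roots by 12.8 points (adjusted p 5.89e-05, limma). XTH2 (AT4G13090) was at 9.23% ± 0.51 in roots (SD, n = 8) and at 0 in shoots, from a region 650 bp past its high-coordinate end. XTH29 (AT4G18990), a class III gene known from stress responses, was at 8.31% ± 0.67 (SD, n = 8) in roots and at 0 in shoots. Its region, chr4:10402687-10403124, lay wholly within the gene body.

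The other called root genes had peaks in both organs. XTH31 (AT3G44990) was covered to 64.8%, 81.9% and 89.6% in roots (lowest, median and highest) and to 67.3% and 61.7% in BA shoots and 47.1% and 43.5% in control shoots. The groups overlapped by 1 root library, BA replicate 3, and the difference was 24.9 points (SE 5.11). XTH33 (AT1G10550), whose product is known to stay at the plasma membrane, had 72.7% ± 3.75 in roots (SD, n = 8) and 51.7% ± 8.77 in shoots (SD, n = 4). XTH30 (AT1G32170), a class III gene, had 71.5% ± 2.85 in roots (SD, n = 8) and 53.0% ± 8.53 in shoots (SD, n = 4). Root and shoot libraries did not overlap at XTH33 or XTH30. XTH26 (AT4G28850), known from root hairs, had 30.9% ± 5.56 in roots (SD, n = 8) and 15.7% ± 2.89 in shoots (SD, n = 4). Its region chr4:14242481-14243733, which also reaches the neighbour AT4G28840, had a peak in 8 of 8 root and 0 of 4 shoot libraries.

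XTH20 (AT5G48070), known from the vascular tissue of roots, had a region across one gene end, chr5:19481624-19482225, with a peak in 8 of 8 root and 0 of 4 shoot libraries. Its window was covered to 14.0%, 15.7% and 34.1% in roots and to 5.51% to 6.89% in shoots, and with centring and the block together the call did not hold (adjusted p 0.136, limma). XTH8 (7.43 points) and XTH29 were not called after centring (adjusted p 0.444 and 0.0550 by limma), and XTH8 not without shoot BA replicate 1 (adjusted p 0.0677). With the gene body alone the direction of XTH8 turned, with 84.3% in roots and 92.8% in shoots (-8.58 points, adjusted p 0.0598 by limma). With 2 kb flanks that of XTH29 turned (-0.46 points, adjusted p 0.704 by limma). In all, 62 distinct regions lay in the 33 windows, of which 34 had a peak in all 16 libraries. Of these 62, 5 had a peak in every WT root and no WT shoot library (XTH2, XTH20, XTH21, XTH26 and XTH29), against 5.13% of all regions. A further 2 had the opposite (XTH6 and XTH17), against 2.8%.

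**Figure D3:**
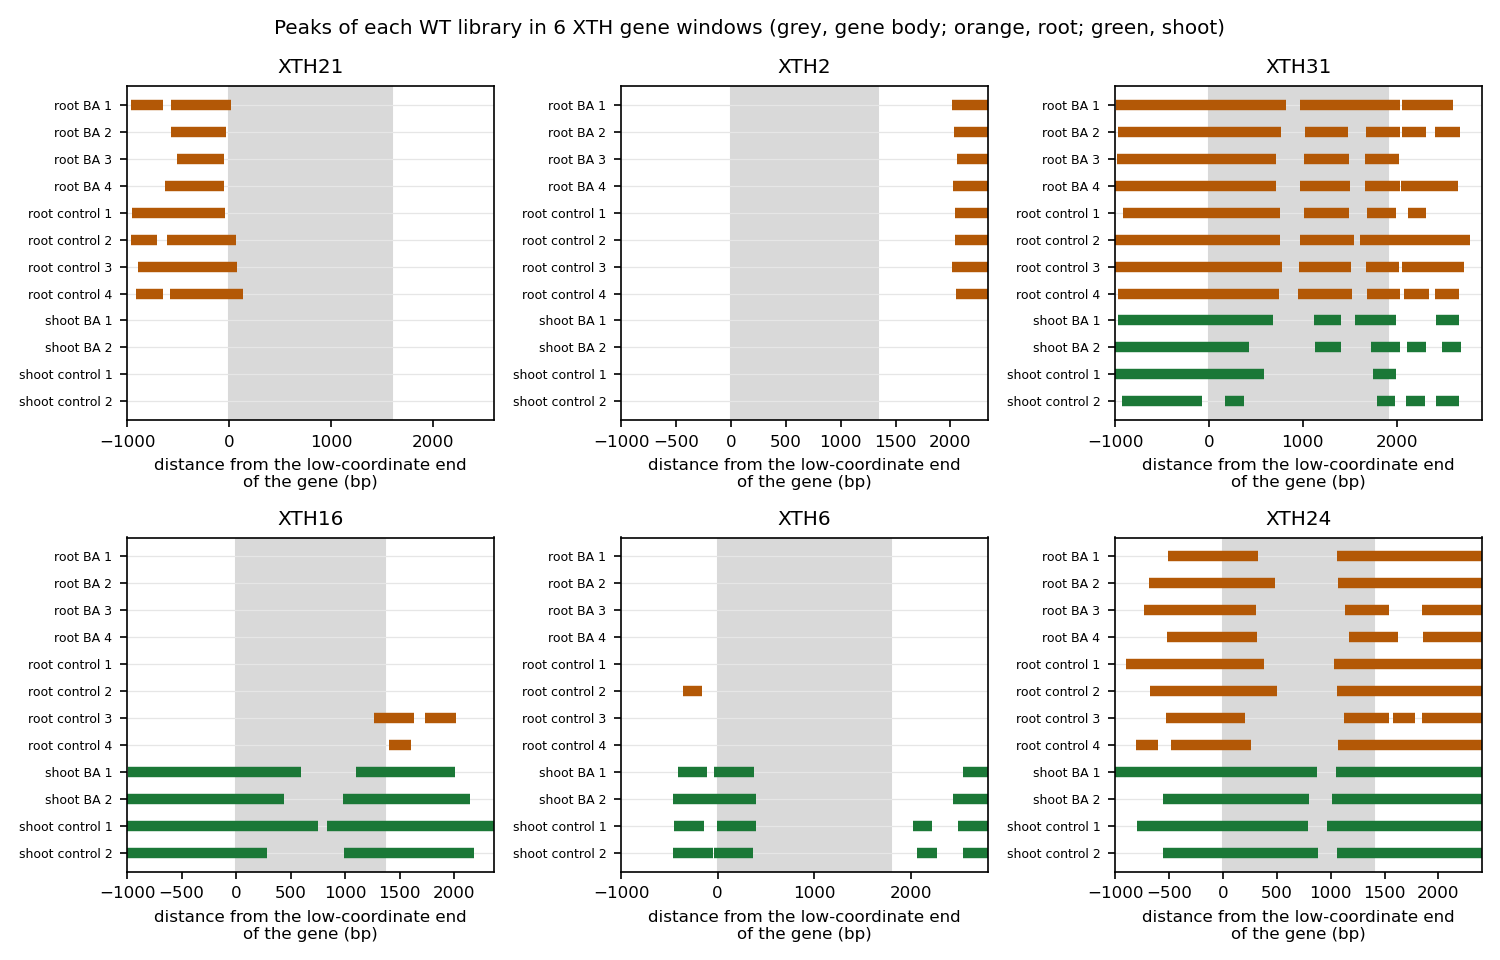
Bars show the peaks of each WT library, 8 root libraries above 4 shoot libraries, along 6 XTH genes. The x axis is the distance in bp from the low-coordinate end of the gene, whose body is grey; strand is not shown. XTH21 and XTH2 have bars in root libraries alone, and XTH16 and XTH6 have most of theirs in shoot libraries.

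By the exact permutation test (two-sided, 8 against 4 libraries, unadjusted), XTH16, XTH6, XTH21 and XTH33 each gave a p of 0.00202. That is the smallest that 495 splits of single libraries allow. Libraries of the same replicate number, which deviated together, were not kept together in these splits, so the p ignores that pairing. XTH31 gave 0.00404 by the same exact permutation test. Covered percents did not overlap in 7 members with roots above (background 26.9%) and in 6 with shoots above (6.6%). The 6 with shoots above were XTH6, XTH16, XTH17, XTH22, XTH24 and XTH27. XTH22 (AT5G57560), the touch-induced gene TCH4, had 63.3% to 91.4% in roots and 93.2% to 93.5% in shoots, but passed only after centring (adjusted p 0.0685 on the raw values, limma). XTH3, XTH4, XTH10, XTH22 and XTH28 were called lower in roots after centring only, XTH10 with 0 in all these libraries, where centring alone makes the difference. XTH3 was near the floor too, at 5.61% in root control replicate 1, 7.46% in shoot control replicate 1 and 0 in all other WT libraries. Its call thus rests largely on centring as well.

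There were 4 tandem clusters, which hold 11 of the 33 genes, and in 2 of them neighbours differed in whether they had peaks. XTH1 and XTH2 lie next to each other, and XTH1 had none. In the cluster of XTH12, XTH13, XTH25 and XTH22, XTH12 had none, XTH13 had one in 2 of 4 mutant root, 5 of 8 WT root and 0 of 4 shoot libraries, and XTH25 and XTH22 had one in all. The cluster spans 8360 bp. Over that stretch plus 1 kb at each end, 31.2% ± 5.54 lay under peaks in WT roots (SD, n = 8) and 33.1% ± 0.0357 in shoots (SD, n = 4). XTH25 and XTH22 share 1435 bp of their windows and XTH13 and XTH25 share 1314 bp, so their values are not independent. XTH23 and XTH14 share 1637 bp and 2 regions. XTH23 was covered to 69.1% ± 9.62 in WT roots (SD, n = 8) and to 69.7% ± 1.91 in shoots (SD, n = 4). XTH14, known from root hairs, was covered to 43.3% ± 8.88 in WT roots (SD, n = 8) and to 41.9% ± 2.62 in shoots (SD, n = 4). Neither passed.

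The cluster of XTH24, XTH18 and XTH19 spans 11033 bp and was among the most open. With 1 kb added at each end, 64.6% ± 8.35 lay under peaks in WT roots (SD, n = 8) and 68.5% ± 5.40 in shoots (SD, n = 4). Only XTH24 was called between organs on the raw values. XTH18 and XTH19, both known from roots, differed by -5.09 (SE 8.60) and 2.20 points (SE 2.29). At XTH18, root control replicate 1 was at 95.1%, while the other 7 root libraries were between 47.4% and 69.8%.

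Mutant roots were compared with WT roots to show what differed in the line that lacks the 3 type-B regulators. Whether a difference came from these mutations or from another feature of the line or its handling was not tested. XTH10 (AT2G14620) was the 1 member of 31 called (limma, 4 against 8 libraries). Over all windows, 0.389% were called, 0.085% higher in the mutant. XTH10 was covered to 29.3% and 28.9% in BA roots and to 29.0% and 31.2% in control roots of the mutant, and was at 0 in all 8 WT root and all 4 WT shoot libraries. The difference was 29.6 points (SE 0.593, adjusted p 4.45e-11 by limma). Of all 24696 windows, 6 rose by as much or more, XTH10 included, and 4 windows (0.0162%) had a peak in every mutant and no WT root library. The call held after centring, with the block, with both, and without any 1 library (adjusted p up to 1.61e-07, limma). By the exact permutation test, which ignores the replicate numbers, the p was 0.00202, the smallest for splits of single libraries. Adjusted over all windows it was 0.242.

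The mutant peaks at XTH10 filled the space between it and PR1, the pathogenesis-related gene used as a marker of salicylic acid responses, 2230 bp away. Together they span chr2:6242490-6244866 in 7 peaks, end 27 to 95 bp inside XTH10, and reach into PR1 in 2 of the 4 libraries. In WT the same stretch had 1 narrow peak of 200 bp in 4 of 8 root and 3 of 4 shoot libraries, outside the XTH10 window. It was covered to 94.8% in mutant roots, 4.21% in WT roots and 6.31% in WT shoots. The window of PR1 had 33.9% ± 2.22 in mutant roots (SD, n = 4) and 3.45% ± 3.68 in WT roots (SD, n = 8), a difference of 30.5 points (adjusted p 2.43e-05, limma). Its values come from the same peaks.

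**Figure D4:**
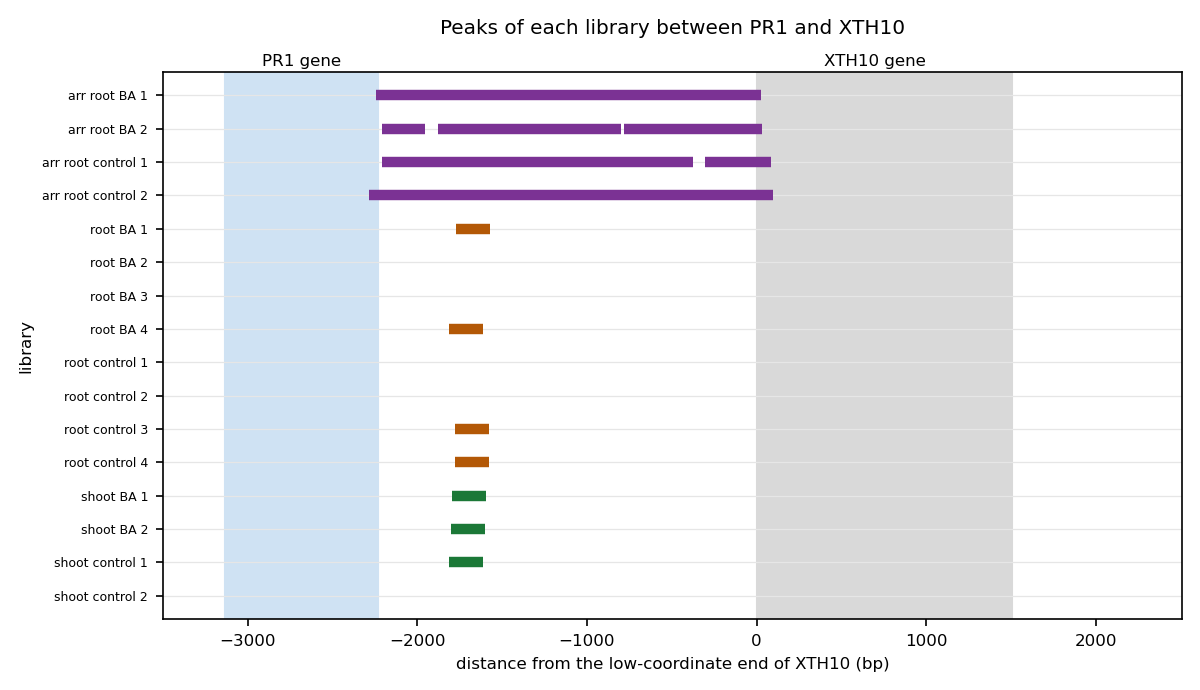
Bars show the peaks of each of the 16 libraries between PR1 (blue) and XTH10 (grey), against the distance in bp from the low-coordinate end of XTH10. The 4 arr1,10,12 root libraries at the top have broad peaks up to the edge of XTH10, and WT root and shoot libraries have a narrow peak or none.

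No other member passed between genotypes. The nearest were XTH31, with a mean of 63.7% in mutant roots (52.3% to 76.8%, n = 4) and 79.7% in WT roots (64.8% to 89.6%, n = 8), and XTH32, at 33.6% ± 4.06 in mutant roots (SD, n = 4) and 43.5% ± 6.08 in WT roots (SD, n = 8). Their adjusted p was 0.247 and 0.268 (limma), and mutant and WT libraries overlapped in both. The median difference was -1.16 points over the 31 members and -0.48 over all windows.

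BA libraries were compared with control libraries of the same kind to show an effect of cytokinin. None of the 31 members passed in mutant roots, WT roots or WT shoots (limma). Over all windows 0%, 0.0121% and 0.0972% passed in those sets. At an unadjusted p under 0.05 were 0, 2 and 3 members. The exact permutation test also called no window in any of the 3 sets, and with 2 against 2 libraries its smallest p is 0.333. On simulated differences of 20 points in WT roots limma recovered 58 of 100 windows, and of 10 points 20 of 100. The simulation had no shared deviation of replicate numbers and changed only windows of middle covered percent. Its BA changes were in WT roots alone, so it gives no recovery for shoots or mutant roots, with 2 against 2 libraries. The 4 type-A regulators tested are direct targets that check the treatment. Of these, 1 was called in WT roots, 1 in WT shoots and 0 in mutant roots. The ARR7 window was higher in WT BA roots by 45.2 points (adjusted p 0.0106, limma). The ARR5 window was higher in BA shoots by 25.8 points (adjusted p 0.00529, and 0.109 with the replicate block, limma). In each of these 2 WT sets the other 3 did not pass.

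The member with the lowest adjusted p was XTH32 (AT2G36870) in shoots, at 58.1% and 54.6% with BA and 34.7% and 28.8% without. Both BA libraries lay above both controls, which was so for 3 of 31 members and 13.5% of all windows. The difference was 24.6 points (SE 5.35), and the adjusted p was 0.242 (limma). In WT roots XTH32 had 48.4%, 50.9%, 39.7% and 41.1% with BA and 36.1%, 52.1%, 38.4% and 41.0% without. In mutant roots it had 28.1% and 35.8% with BA and 33.3% and 37.4% without. XTH31, the hydrolase most like it, had 67.3% and 61.7% in BA shoots and 47.1% and 43.5% in control shoots, 19.2 points apart (SE 8.34, adjusted p 1, limma). In mutant roots XTH31 had 52.3% and 65.0% with BA and 60.6% and 76.8% without. The test of the BA effect in shoots minus that in WT roots gave 21.5 points (SE 6.55, adjusted p 0.991, limma) for XTH32. No member passed this test (background 0.0648%) or the same test between genotypes (0%), where 2 and 0 members were at an unadjusted p under 0.05, nor did any pass by exact permutation.

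In WT roots the lowest unadjusted p among the members was at XTH21, whose BA libraries gave 25.0%, 14.9%, 12.9% and 16.1% and control libraries 25.4%, 26.1%, 27.0% and 27.2%. All BA libraries lay below all controls, which was so for 2 of 31 members and 2.83% of all windows. The difference was -9.22 points (SE 2.28, adjusted p 0.707, limma). Without BA replicate 1 it was -11.8 points and passed (adjusted p 0.0301). In mutant roots XTH21 had 21.6% and 27.4% with BA and 31.0% and 27.7% without. XTH15, a shade-responsive gene close to XTH16, had 0, 9.52%, 0 and 5.93% with BA and 0, 22.6%, 24.9% and 15.3% without, a difference of -11.8 points (adjusted p 0.866, limma).

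Taken by replicate pairs, 0 members were higher with BA in all 4 WT root pairs and 7 were lower (XTH5, XTH11, XTH14, XTH21, XTH23, XTH25 and XTH29), where 1.49% and 19.4% of all windows did so. In shoots 3 members were higher in both pairs (XTH7, XTH31 and XTH32) and 5 lower, against 29.3% and 13.5%. In mutant roots 6 were higher and 11 lower, against 10.5% and 40.3%. The median BA difference over the members was 0 in mutant roots, -2.39 in WT roots and 0 points in WT shoots, and over all windows -1.22, -1.64 and 0.50 points.

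**Figure D5:**
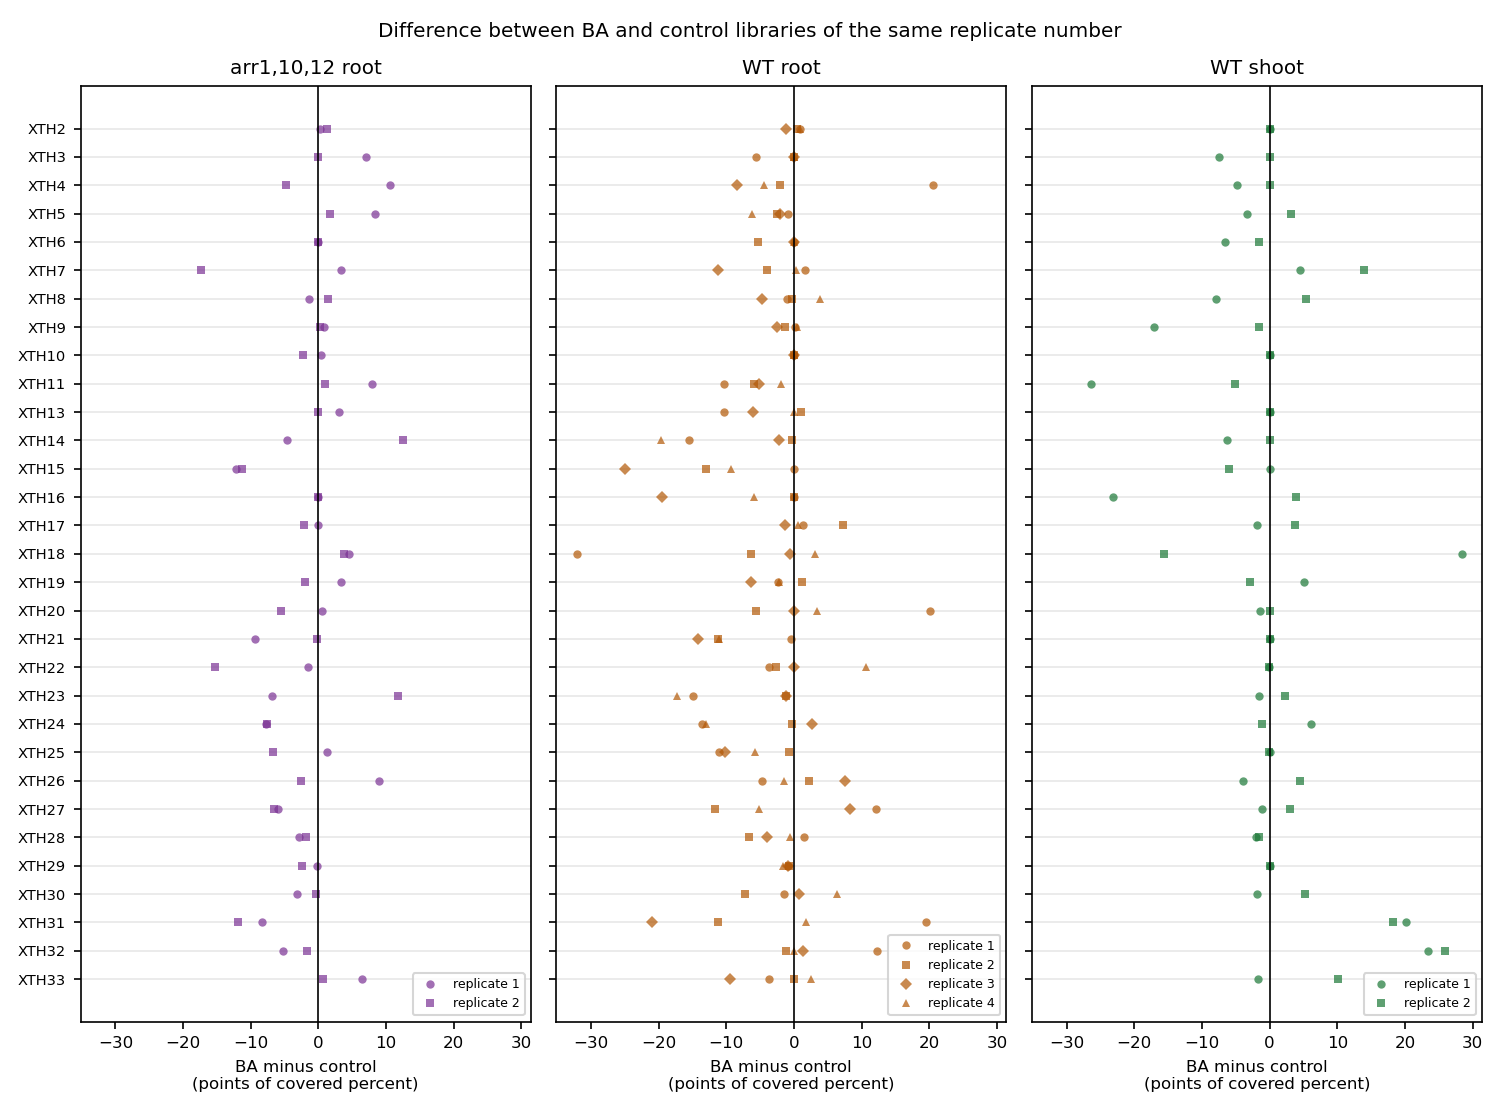
Each point is the BA minus control difference in covered percent (x axis, points) of 1 replicate number for 31 XTH windows, in mutant roots, WT roots and WT shoots from left to right. XTH32 and XTH31 lie right of 0 in both shoot pairs, and XTH21 lies left of 0 in all 4 WT root pairs.

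The authors' lists of regions that differed between BA and control, chosen on these libraries, give no direction. Their root list had 1 region in an XTH window, at XTH31 (chr3:16447163-16447380, within the body), where 2.43% of windows with a peak in roots had one. Their shoot list had 7 regions in 6 XTH windows (XTH9, XTH16, XTH22, XTH25, XTH31 and XTH32), where 2.82% of windows with a peak in shoots had one. XTH22 and XTH25 share 1 of the 7. The region at XTH32, chr2:15474743-15475260, was under peaks to 89.8% and 100% in BA shoots and to 78.2% and 77.4% in control shoots. One at XTH31, chr3:16448603-16448880, was covered to 100% and 77.7% in BA shoots and to 72.3% and 56.8% in control shoots. The others, at XTH9, XTH16, XTH22 and the second at XTH31, were wholly under peaks in all 4 shoot libraries, so peak calls show no difference there. The root region of XTH31 was likewise wholly covered in all 8 WT root libraries.

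Other genes of the xyloglucan pathway, 19 that build or trim the polymer, were read in the same fit. Between organs 8 of 19 were called, 5 higher in roots and 3 lower, against 47.8% of all windows, 37.1% higher and 10.7% lower. With the replicate block 5 were called, 2 higher and 3 lower, against 39.7% of all windows, 30.9% higher and 8.84% lower. After centring 1 was higher and 5 were lower, against 20.7% and 31.6% of all windows. CSLC4, a glucan synthase that makes the backbone, was at 62.6% ± 9.70 in roots (SD, n = 8) and 85.6% ± 4.42 in shoots (SD, n = 4). Its homologue CSLC12 was at 4.43% ± 3.08 in roots and 20.3% ± 4.75 in shoots, and XLT2, a galactosyltransferase of the side chains, at 77.0% ± 3.69 in roots and 62.1% ± 3.70 in shoots (SD, n = 8 and 4 for both). These 3 kept their direction and call after centring and with the block, as did XYL1, which was lower in roots. None of the 19 was called with BA in any of the 3 sets (background as above). Between genotypes XYL1, the xylosidase that trims xyloglucan, was at 19.5% ± 0.47 in mutant roots (SD, n = 4) and 37.6% ± 5.51 in WT roots (SD, n = 8), a difference of -18.1 points. Its adjusted p was 0.0111 in the fit without and 0.106 in the fit with the replicate block (limma).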

How the data were processed

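ATAC-seq peaks of 16 libraries were used. The authors deposited 1 list per library with chromosome, start and end positions, and 2 lists of differential regions, with no score, count or fold; depth is thus unknown. The build was TAIR10, and the tools were HOMER 4.9.2, deepTools 2.5.2, Bowtie 1.2.0 and SAMtools 1.5, per the submitters' processing notes; what each did is not given in the sources used here. Gene positions came from a RefSeq table of TAIR10.1, without strand, whose offset to the peaks was within 100 bp in 61 of 61 bins; printed coordinates are the files' own.

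The percent of each gene window (body with 1 kb on both sides) under the deposited peaks was computed and fitted with limma 3.58.1 in R 4.3.3 (6 group means, trend and robust, Benjamini-Hochberg, threshold 0.05) over 24696 windows. The members, lists and tests were chosen with earlier results of these data known. Named were all called members, up to 6 per direction between organs and 4 otherwise, clusters within 10 kb, genes with an authors' region and genes without peaks; the other called members and those nearest to a call were added after their values were seen. In WT roots libraries of the same number deviated together (r 0.310 to 0.465 in 4 pairs, against -0.342 to 0.231 for unlike numbers). In shoots and mutant roots r was 0.403 and 0.506. With 2 libraries per group, unlike numbers there give the same r with the opposite sign, so only the sign is informative. The numbers were taken as pairs for the block. Values are from the fit without it unless stated, and blocked values are given beside some of the results they change. The fits were tested on simulated data. Alternatives were gene body alone, 2 kb flanks, peaks of at least 300 bp, overlaps of at least 100 bp, other variance settings, centring, other filters, exact permutation, the replicate block and leaving out each library; permutation on centred values and the block with centring were chosen after seeing the data.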

Additional observations from a re-analysis of the deposited data

Results flagged for a closer look

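Within the WT root groups of 4 libraries, 1 library stood far from the other 3 in 6 of 57 groups of values with any spread. For normally distributed values chance gives about 1 in 20. That rate does not hold where the other libraries are all at 0, since any value above 0 is then flagged. All 6 were in control roots. Control replicate 1 was high at XTH3 (5.61%, the others at 0) and XTH11 (29.9%, the others 17.0% to 19.1%), and low at XTH4 (52.9%, the others 78.8% to 82.7%). Control replicate 2 was high at XTH6 (5.26%, the others at 0) and XTH7 (74.1%, the others 57.3% to 57.7%). Control replicate 4 was low at XTH8 (88.5%, the others 90.8% to 91.0%).

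At 2 genes every BA library of mutant roots was above, and every BA library of WT roots below, the control library of its own number. For XTH5 the BA effect was 5.04 points in mutant roots and -2.90 points in WT roots, a difference of 7.93 points (adjusted p 1, limma). For XTH11 it was 4.45 points in mutant roots and -5.81 points in WT roots, a difference of 10.3 points (adjusted p 1, limma).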

How the results depend on the processing

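The count of members called between organs (16) was 10 with the gene body alone, of which 9 were among the 16, and between 13 and 17 when any 1 library was left out. With the gene body alone XTH10 was called in BA minus control of mutant roots (1 member, -3.95 points) and in its difference from WT roots (1). The genotype count fell to 0 by exact permutation on raw and on centred values, and stayed at 1 to 1 without any 1 library. With peaks of at least 300 bp, 1 window instead of 0 had a peak in all shoot and no root libraries. The BA count in WT roots was 0 to 1 (1 without BA replicate 1), in shoots 0 to 2 (XTH9 and XTH11, without control replicate 2) and in mutant roots 0 to 0. Some differences reversed: XTH8 and XTH17 between organs with the gene body alone (-8.58 and 0.97 points), XTH29 between organs with 2 kb flanks (-0.46) and XTH29 with BA in roots after centring, with either test (1.03, against -1.04 raw). XTH9 lost its call without any 1 of 15 libraries. The replicate block changed no other call among the members than XTH9 and XTH11 (14 called). Over all windows, the block moved the genotype count to 22, against 96, and the BA count in shoots to 0, against 24. The cause of these changes was not tested. With no read numbers, what depth limits is unknown, and a peak list cannot show graded change under a peak.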
